A study of Rattus norvegicus with 30 samples.

Results

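The comparison is between the livers of 6 rats that had lost 90% of the liver (PH90) and the livers of 6 rats that had no operation (unoperated). These 12 arrays, of 30 in the series, were chosen by the treatment stated for each rat, so surgery and resection are compared together and their shares cannot be told apart from these groups alone. All animals were wildtype Wistar rats assigned to groups at random, and nothing in the labels gives their age, sex or weight. The liver was taken 24 hours after the operation and snap frozen. For the unoperated rats the stated treatment is none, while the text on the whole series speaks of a control operation, and the label of the rats is followed here. The remaining arrays came from 6 rats each with a sham operation and with 30% (PH30) or 70% (PH70) of the liver removed. They share the estimate of the spread between rats with the 12 arrays, and their values are given only where they show what differs after the 90% resection.

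Partial hepatectomy is the standard model of liver regeneration. After loss of tissue the hepatocytes of the remnant leave their resting state, copy their DNA and divide until the mass of the liver is restored, and in the rat the wave of DNA synthesis follows about a day after the loss. Meanwhile the remnant has to keep up the work of the whole organ: plasma proteins, bile, urea, glucose and the breakdown of drugs. A 90% resection in the rat is used as a model in which the remnant may be too small to do so.

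RNA was hybridised to Affymetrix Rat Gene 2.0 ST arrays, 1 per rat. The deposited values are on a log2 scale and each probe set is centred on its median over the 30 arrays, so a value of 1 means a signal 2 times the median array and says nothing of how abundant a transcript is. For the same reason the label of the tissue could not be checked against absolute levels of liver transcripts. Differences are PH90 minus unoperated, given with their standard error (SE) and a p adjusted over all 18166 genes tested with limma, and a gene is said to have risen or fallen at an adjusted p below 0.05. The p-values measure the spread between these rats, of which nothing is stated about housing or day of surgery. The unoperated rats carry the highest animal numbers of the series (145 to 152, against 39 to 111 in the PH90 rats), so the order of the animals and the operation cannot be told apart. Scores on the first principal component, which took up 45.7% of the variance, were 34.75 to 59.45 for PH90 arrays, against -21.89 to -20.27 for unoperated arrays. PH90 rats 61 and 106 lay farthest out, with a standard deviation over genes of 0.52 and 0.55, against 0.36 to 0.43 in the other PH90 rats and 0.21 to 0.23 in the unoperated rats. Quantile normalization, 1 of the alternative settings given below, makes this spread the same in all arrays and so narrows the PH90 values by construction. Whether a call lost under it came from that narrowing was not tested. PH30 rat 95 and PH70 rat 139 correlated negatively with the rest of their groups (mean r = -0.113 and -0.114). They enter here through the shared spread and through every value given for the PH30 and PH70 groups. Because tissue was measured in bulk, fewer cells of a type and less RNA per cell cannot be told apart in any of the results.

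In PH90 livers 6133 of 18166 genes differed from unoperated livers (33.8%). Of these, 3505 rose (19.3% of all genes tested) and 2628 fell (14.5%). The falls were the larger changes: 608 genes fell at least 2-fold (3.35%) and 396 rose at least 2-fold (2.18%), and at 4-fold the counts were 158 and 43. In 2088 genes every PH90 rat lay above every unoperated rat (11.5%), and in 1593 genes every PH90 rat lay below (8.77%). Sham against unoperated rats gave 134 called genes (0.738%), of which 0.308% of all genes rose and 0.429% fell.

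**Figure D1:**
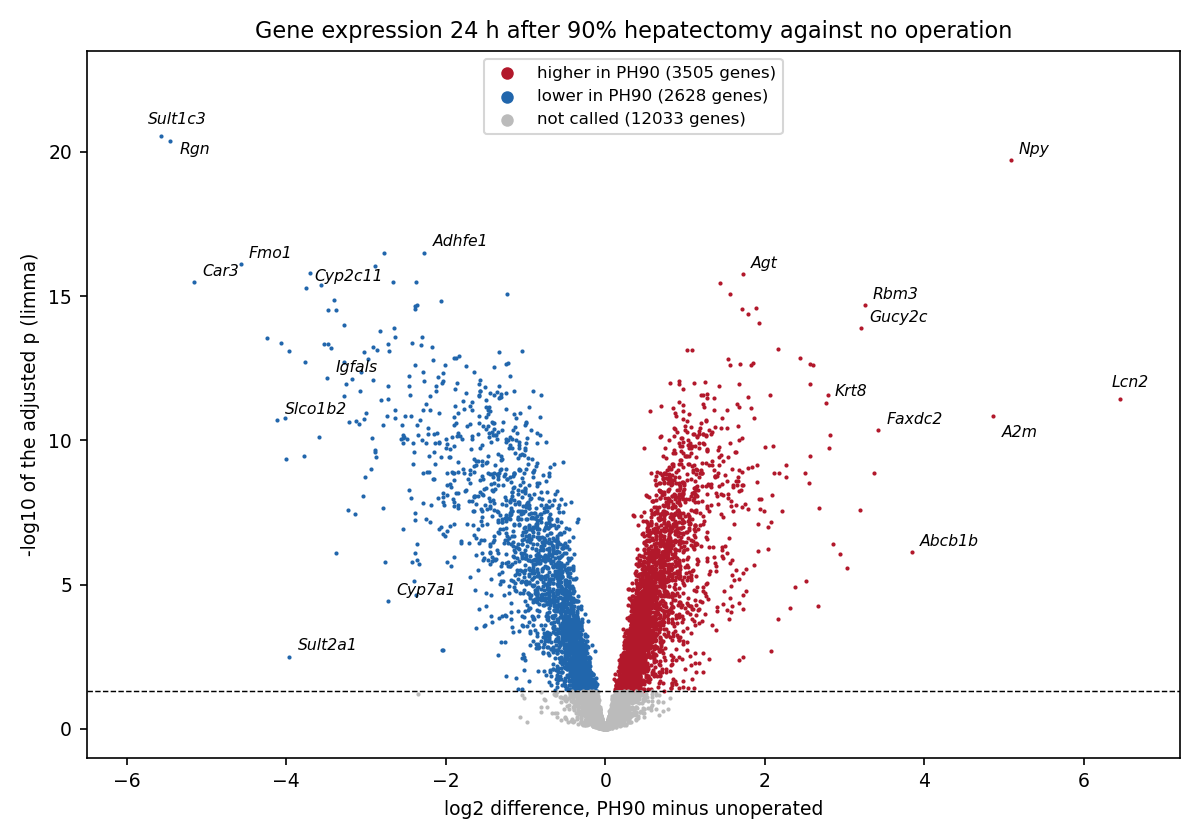
Each point is 1 of 18166 genes, placed by its log2 difference (PH90 minus unoperated, 6 rats each) and by -log10 of limma's adjusted p; the dashed line marks an adjusted p of 0.05. The 2628 genes that fell reach differences of -5.57, and the 3505 that rose reach 6.45.

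The largest rise was that of Lcn2, which encodes lipocalin 2, an iron-chelator-binding protein secreted in the acute phase. Its values (lowest, median and highest) were 1.09, 1.24 and 1.37 in PH90 rats, against -5.70, -5.09 and -4.83 in unoperated rats, and the groups lay far apart. The difference was 6.45 ± 0.46 (SE, adjusted p = 3.7e-12), or 87.5-fold. A2m, the alpha-2-macroglobulin that is a major acute phase protein of the rat, stood at 0.56, 0.93 and 1.35 in PH90 rats, against -4.68, -3.89 and -3.10 in unoperated rats, a difference of 4.86 ± 0.37 (SE, adjusted p = 1.4e-11). Both had already risen after the sham operation, by 3.72 for Lcn2 and 3.28 for A2m against unoperated rats, and neither passed the test of PH90 against PH70. Npy was of another kind. This gene of neuropeptide Y, best known as a transmitter of neurons, was at 4.13, 4.79 and 5.06 in PH90 rats, against -0.48, -0.34 and -0.28 in unoperated rats, a 33.9-fold difference (5.08 ± 0.16, adjusted p = 2.0e-20). Against the same unoperated rats its difference was 0.38 in sham, 0.26 in PH30 and 0.44 in PH70 rats.

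Gucy2c, Ptprz1 and Cdh17 had that form, large after the 90% resection and small after the others. Gucy2c, the receptor guanylyl cyclase of the intestine, stood at 2.25, 2.97 and 3.44 in PH90 rats, against -0.43, -0.28 and -0.19 in unoperated rats. Ptprz1, a receptor tyrosine phosphatase of the nervous system, stood at 1.75, 2.58 and 3.49 in PH90 rats, against -0.14, -0.05 and 0.07 in unoperated rats. Cdh17, the liver-intestine cadherin, stood at 2.31, 2.66 and 3.06 in PH90 rats, against -2.17, -0.02 and 1.34 in unoperated rats, with a wide unoperated group that still did not reach the PH90 rats. Their differences were 3.21 ± 0.17, 2.56 ± 0.16 and 3.03 ± 0.45, and none of the 3 passed the test in sham or PH30 rats against unoperated rats. In PH70 rats Gucy2c was 0.76 above the unoperated rats, and the values were 0.04 for Ptprz1 and -0.13 for Cdh17. For the further rises that follow, differences are from unoperated rats only, and the values in sham, PH30 and PH70 rats are not given here. Rbm3, a cold-inducible RNA-binding protein, rose by 3.25 ± 0.16 and Faxdc2, a gene of the fatty acid hydroxylase family, by 3.42 ± 0.28. Gstm3 (3.37), a glutathione transferase, and Cyp2c55 (2.94), a cytochrome P450, belong to families of near-identical genes whose probe sets can share signal. Abcb1b, a multidrug efflux pump of the canalicular membrane, was at 2.83, 3.55 and 4.40 in PH90 rats, against -0.64, -0.31 and 0.27 in unoperated rats, 3.84 ± 0.53 (SE, adjusted p = 7.6e-07). Slc16a6 (3.19), a monocarboxylate transporter, and Mfsd2a (2.85), a lysophospholipid transporter, rose as well. Gadd45b, a stress and growth arrest gene, rose by 2.82 ± 0.23, Osmr, the oncostatin M receptor, by 2.80 ± 0.25, and Procr, the endothelial protein C receptor, by 2.79 ± 0.20. Agt, the angiotensinogen gene, varied little within the groups: it rose by 1.72 ± 0.08 (SE, adjusted p = 1.7e-16) and stood at 1.34, 1.57 and 1.81 in PH90 rats, against -0.29, -0.15 and -0.08 in unoperated rats.

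**Figure D2:**
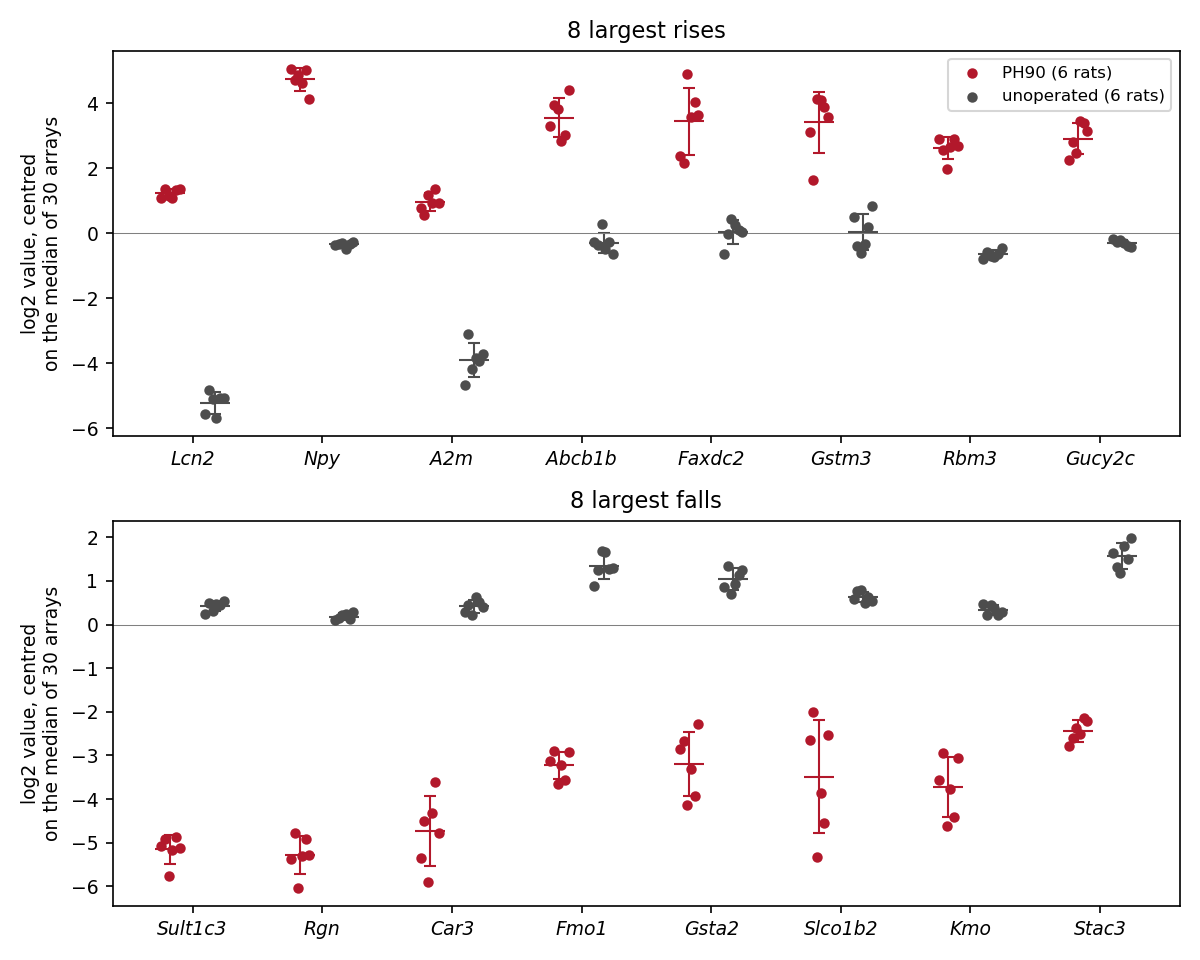
Points are single rats, PH90 left of unoperated for each gene, on the log2 scale centred on the median of the 30 arrays; the horizontal mark and bar are the mean ± SD of 6 rats. In all 16 genes shown the groups are apart, and the PH90 rats spread most in Slco1b2, between -5.32 and -2.01.

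The falls were led by enzymes and carriers of hepatocytes. Sult1c3, a sulfotransferase, stood at -5.77, -5.09 and -4.86 in PH90 rats, against 0.25, 0.46 and 0.53 in unoperated rats, which is a 47.5-fold difference (-5.57 ± 0.15, adjusted p = 2.9e-21). Rgn encodes regucalcin, a calcium-binding protein and lactonase of pericentral hepatocytes, and stood at -6.04, -5.28 and -4.78 in PH90 rats, against 0.10, 0.18 and 0.28 in unoperated rats. Car3, carbonic anhydrase 3, stood at -5.89, -4.64 and -3.61 in PH90 rats, against 0.23, 0.43 and 0.64 in unoperated rats. The 6 PH90 rats were below every unoperated rat in each of the 3 genes, and the differences of Rgn and Car3 were -5.46 ± 0.16 and -5.16 ± 0.24. Fmo1, a flavin monooxygenase that oxidises drugs, fell by 4.57 ± 0.19 (SE, adjusted p = 7.6e-17), and Gsta2, a glutathione transferase, fell by 4.24 ± 0.24. The uptake transporter Slco1b2 fell by 4.12 ± 0.32, and Kmo, kynurenine monooxygenase of tryptophan breakdown, fell by 4.07 ± 0.23. Fads2 (-3.97) and Fads1 (-3.70) are the desaturases that make long polyunsaturated fatty acids, and Bdh1 (-3.76) is the last enzyme of ketone body synthesis. Stac3, studied as a gene of muscle excitation, fell by 4.01 ± 0.31 and had fallen by 3.04 in PH70 rats. In Sult2a1, the sulfotransferase of steroids and bile acids, the PH90 rats spread from -5.49 to -1.0, and its difference of -3.96 ± 1.04 (adjusted p = 0.0031) was not called after quantile normalization (-2.64, adjusted p = 0.054). Dhrs3, a retinal reductase, and Adhfe1, a mitochondrial transhydrogenase of hydroxyacids, had smaller changes with little spread, -2.77 ± 0.11 and -2.27 ± 0.09, and an adjusted p of 3.1e-17 for Adhfe1.

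To see which tasks of the liver these genes belong to, 46 lists of genes were counted. Over all genes the median difference was 0.01, with 19.3% of genes rising and 14.5% falling, and each list is read against those shares. Lists of ribosome biogenesis, proteasome subunits and immediate early genes had the highest shares of rising members, and those of plasma carriers, coagulation and bile acids the highest shares of falling members. Lists overlap in members, and their members were chosen with earlier results of these data known.

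**Figure D3:**
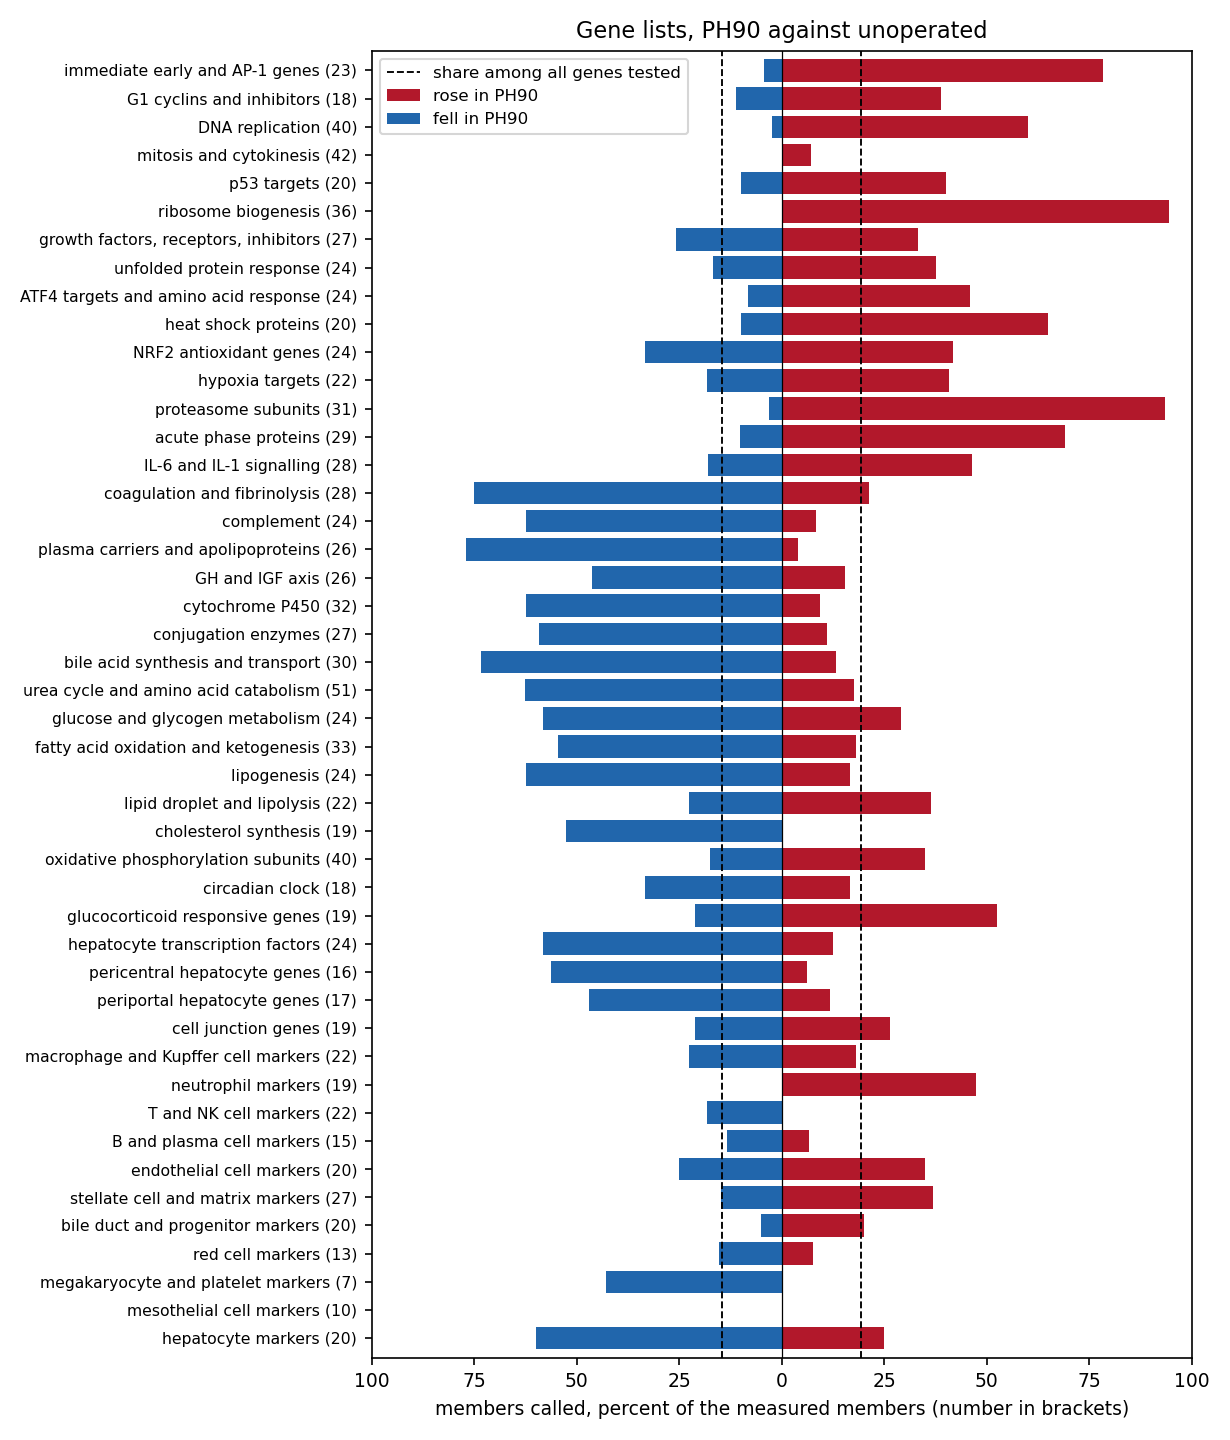
Bars give the percent of measured members of each gene list that rose (right, red) or fell (left, blue) in PH90 against unoperated rats at an adjusted p below 0.05; the number of members is in brackets. Dashed lines mark the shares among all 18166 genes, 19.3% and 14.5%; ribosome biogenesis reaches 94.4% rising and plasma carriers 76.9% falling.

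Immediate early genes are the transcription factors and feedback genes that cells switch on within minutes to hours of a growth or stress signal. Of 23 measured members 18 rose and 1 fell, with a median of 0.68. Klf6 was at 0.33, 1.53 and 3.01 in PH90 rats, against -0.39, -0.20 and -0.07 in unoperated rats, and all PH90 rats were above all unoperated rats, though their values ran over a wide range. Zfp36, which destabilises inflammatory messages, was at 0.58, 1.45 and 1.63 in PH90 rats, against -0.70, -0.29 and -0.13 in unoperated rats, 1.71 ± 0.17 (SE, adjusted p = 3.6e-09). Junb rose by 1.12 ± 0.23 and the nuclear receptor gene Nr4a1 by 1.07 ± 0.20. Egr1 (1.23 ± 0.38) and the growth regulator Myc (0.98 ± 0.23) rose with overlapping groups, and neither was called after quantile normalization (1.20 with adjusted p = 0.057, and 0.59 with adjusted p = 0.083). The list itself kept 11 rising members under that setting, with a median of 0.42. Dusp1, a phosphatase that shuts off MAP kinases, was the member that fell (-1.04 ± 0.28), and 2 members fell when PH90 rat 39 or unoperated rat 145 or 147 was left out or when the fit held only the groups compared. Against the same unoperated rats 3 members rose and 1 fell in PH70 rats (9.31% and 9.17% of all genes), and 2 rose and 2 fell in PH30 rats (3.48% and 6.37% of all genes). Direct tests called 13 members higher in PH90 than in PH70 rats and 0 lower, where 14.1% of all genes were higher and 10.4% lower.

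Of 18 genes of the G1 phase, 7 rose and 2 fell. Ccnd1, the cyclin that carries hepatocytes through G1, was at 0.57, 1.43 and 2.43 in PH90 rats, against -0.32, -0.11 and 0.10 in unoperated rats, 1.53 ± 0.29 (SE, adjusted p = 7.5e-05), so all 6 PH90 rats were above the unoperated rats. The cyclin-dependent kinase inhibitor gene Cdkn1a rose as well and by a similar amount: its values were 0.90, 1.16 and 1.73 in PH90 rats, against -0.83, -0.33 and 0.11 in unoperated rats, 1.55 ± 0.31 (SE, adjusted p = 1.5e-04). Ccne1, the cyclin of entry into S phase, rose by 1.21 ± 0.24. The inhibitor gene Cdkn1b (-0.67 ± 0.10) and the retinoblastoma gene Rb1 (-0.59 ± 0.10) fell.

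DNA replication genes were higher in PH90 than in unoperated rats, and lower than in PH70 rats. Of 40 members 24 rose and 1 fell against unoperated rats, with a median of 0.50, whereas in PH70 against the same unoperated rats 35 rose and 0 fell, with a median of 0.90. The direct test of PH90 against PH70 called 0 members higher and 20 lower (median -0.49). The PH70 group includes rat 139, with a list mean of -0.07, against 0.88 to 1.19 in the other PH70 rats. Mcm6, a subunit of the replicative helicase, was at -0.24, 1.03 and 1.71 in PH90 rats, against -0.71, -0.52 and -0.30 in unoperated rats. Its difference from unoperated rats was 1.30 ± 0.35, and that from PH70 rats was -1.11. Mcm5 (1.18 ± 0.33), Mcm2 (0.94 ± 0.21) and the clamp loader gene Rfc4 (0.98 ± 0.33) rose too, and the large clamp loader subunit Rfc1 fell by 0.58 ± 0.09. The call of Rfc4 was lost without PH90 rat 43 (0.86, adjusted p = 0.057). Averaged over the DNA replication list, PH90 rats 61 and 106 stood at -0.16 and -0.01, against 0.38 to 0.69 in the other 4 PH90 rats and -0.23 to -0.16 in the unoperated rats. Without rats 61 and 106, an alternative chosen after seeing the data, 25 members rose and the median was 0.64.

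Genes of mitosis and cytokinesis did not follow. Of 42 members 3 rose and 0 fell in PH90 against unoperated rats, and the median was -0.06. Fitted on these 12 arrays alone, with a spread that the other groups do not share, 5 members rose and 6 fell with the same median. In that fit 3395 of all 18166 genes rose and 2570 fell. After quantile normalization 3 members rose and 1 fell. Those that rose in the fit over 30 arrays were Cdc25c (0.91 ± 0.21), a phosphatase that activates the mitotic kinase, the transcription factor gene Mybl2 (0.81 ± 0.25) and the spindle checkpoint gene Bub3 (0.58 ± 0.15). Mki67, the marker of proliferating cells, was at -1.99, -0.37 and 0.78 in PH90 rats, against -0.05, 0.04 and 0.19 in unoperated rats, so the PH90 rats lay on both sides of a narrow unoperated group. Its difference was -0.55 ± 0.52 (adjusted p = 0.49), and without rats 61 and 106 it was 0.05. Cdk1, the mitotic kinase itself, was at -0.60, 0.07 and 0.53 in PH90 rats, against -0.15, 0.00 and 0.05 in unoperated rats, a difference of 0.01 ± 0.40 (adjusted p = 0.99). In PH70 against the same unoperated rats 41 of the 42 members rose, with a median of 1.54, by 2.10 in Mki67 and 1.89 in Cdk1. Tested directly, 40 members were lower in PH90 than in PH70 rats and 0 higher, with a median of -1.54. The PH70 group includes rat 139, with a list mean of -0.18, against 1.19 to 2.21 in the other PH70 rats. The median of sham against unoperated rats was -0.57. There limma called 0 members, and 12 were lower at an unadjusted p below 0.05. The list means did not overlap, at -0.60 to -0.43 in sham and -0.09 to 0.14 in unoperated rats. Limma's spread is shared with the PH30 and PH70 rats, whose list means had an SD of 0.95 and 0.90. In sham and unoperated rats that SD was 0.06 and 0.08. Of the 42 members 5 were higher in PH90 than in sham rats and 0 lower (median 0.47), where 19.9% of all genes were higher and 14.7% lower.

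**Figure D4:**
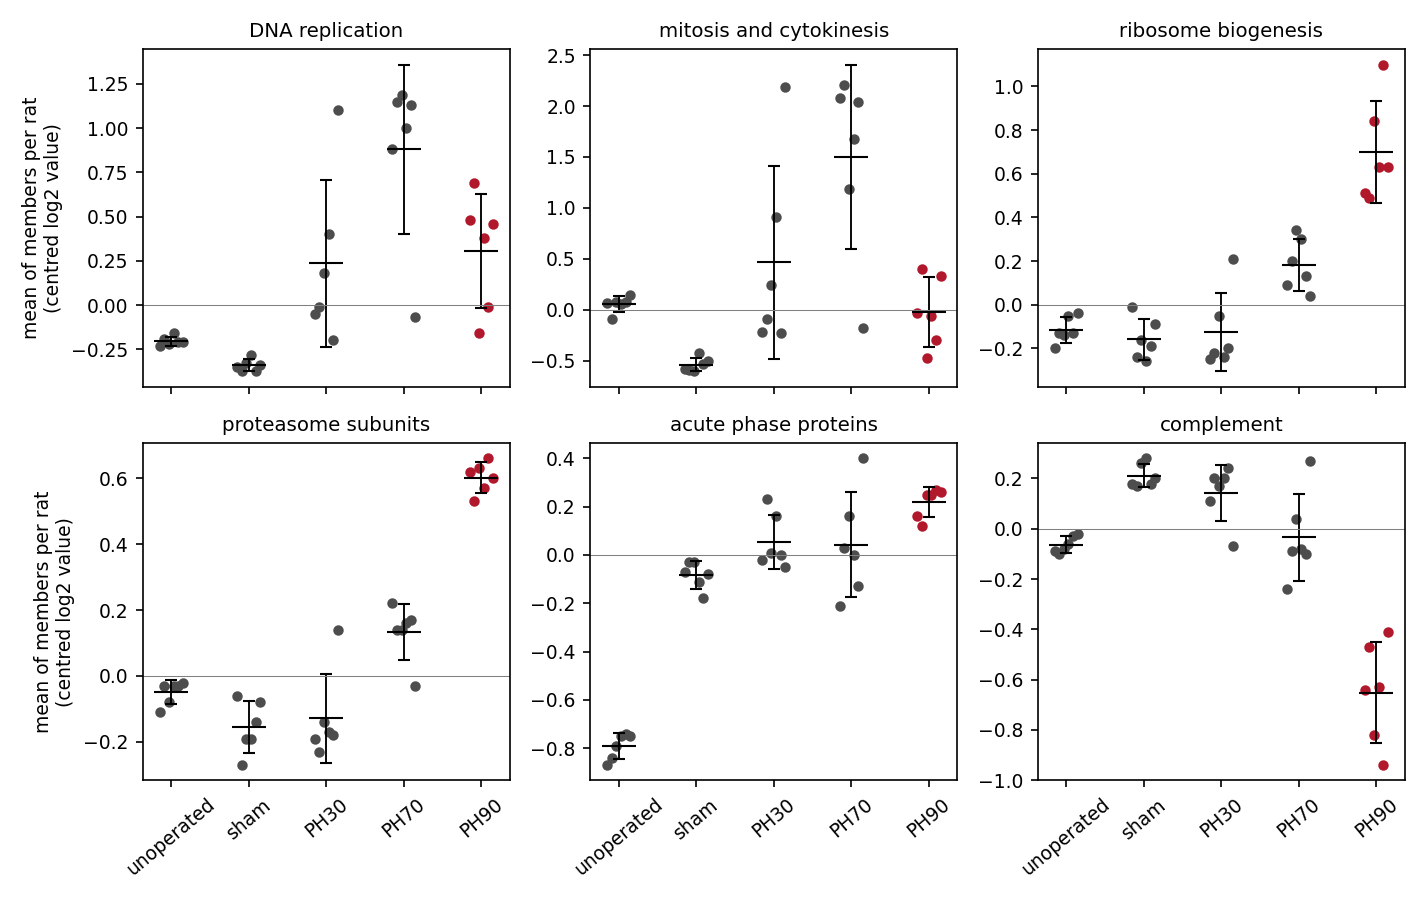
Each point is the mean of a list's measured members in 1 rat, on the centred log2 scale, with the mean ± SD of the 6 rats of each group. PH90 rats (red) lie between unoperated and most PH70 rats for DNA replication, near the unoperated rats for mitosis, and apart from all other groups for ribosome biogenesis, proteasome subunits and complement.

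The promoters of the mitosis genes are shown because the list moved as a block between PH70 and PH90. Many such promoters hold CCAAT boxes and the letters TTTGAA, the core of the element known as CHR, through which cell cycle genes are repressed and activated. Letters were searched on both strands from 250 bases before to 50 bases after the RefSeq start (build GRCr8), with 35 of the 42 genes matched. TTTGAA was found in 26 of them (74.3%), against 15.9% of 14564 promoters of genes on the array, and CCAAT in 27 (77.1%), against 37.9%. In the DNA replication list, 35 promoters were matched and TTTGAA was found in 3 (8.57%) and CCAAT in 21 (60.0%). TTTGAA was in 33.3% of complement, 23.1% of cytochrome P450 and 6.06% of ribosome biogenesis promoters. For CCAAT the shares in these lists were 16.7%, 34.6% and 18.2%. Capitals mark the matches on either strand (CCAAT reads ATTGG on the other), and in Mki67 a TTTGAA and an ATTGG overlap. The promoter of Cdk1 is at chr20:19265043-19265342 on the plus strand and that of Mki67 at chr1:199952544-199952843 on the minus strand.
Cdk1: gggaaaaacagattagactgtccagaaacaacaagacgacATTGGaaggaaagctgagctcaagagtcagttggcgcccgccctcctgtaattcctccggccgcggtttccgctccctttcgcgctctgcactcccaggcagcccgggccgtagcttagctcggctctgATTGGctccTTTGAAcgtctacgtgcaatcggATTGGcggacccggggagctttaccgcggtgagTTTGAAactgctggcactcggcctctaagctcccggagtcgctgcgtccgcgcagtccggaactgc
Mki67: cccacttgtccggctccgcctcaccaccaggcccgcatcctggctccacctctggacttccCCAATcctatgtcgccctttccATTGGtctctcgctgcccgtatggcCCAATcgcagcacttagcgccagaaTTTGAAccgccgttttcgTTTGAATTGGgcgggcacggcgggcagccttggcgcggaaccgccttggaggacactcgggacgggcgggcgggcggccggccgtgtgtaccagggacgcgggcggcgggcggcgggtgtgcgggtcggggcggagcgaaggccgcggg

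The machinery that builds ribosomes rose almost as a whole. Of 36 measured members 34 rose and 0 fell, the median was 0.80, and in 29 members every PH90 rat was above every unoperated rat. Nhp2, a protein of the snoRNPs that modify ribosomal RNA, was at 0.99, 1.22 and 1.39 in PH90 rats, against -0.62, -0.42 and -0.05 in unoperated rats, 1.60 ± 0.18 (SE, adjusted p = 2.7e-08). Nop58, a core protein of another class of snoRNP, was at 0.98, 1.24 and 2.24 in PH90 rats, against -0.32, -0.11 and 0.05 in unoperated rats, 1.52 ± 0.21 (SE, adjusted p = 8.3e-07). Nop56 (1.31 ± 0.20), Nolc1 (1.34 ± 0.12) and Mybbp1a (1.28 ± 0.11), all nucleolar proteins, rose with no overlap between groups. Against PH70 rats 30 of the 36 were higher in PH90 and 0 lower (median 0.52), so here PH90 lay above PH70 and not below it. In PH70 against unoperated rats 16 rose, by 0.81 in Nop58 and 0.19 (not called) in Mybbp1a. The letters CACGTG, the E-box to which MYC and its partner bind, were searched in the same promoters after these values had been seen. They were found in 13 of 33 matched members (39.4%), against 7.85% of 14564 promoters, and in 1 of 35 mitosis promoters (2.86%). The shares were 14.3% in DNA replication, 5.56% in complement and 3.85% in cytochrome P450 promoters. Mybbp1a and Utp20, of which Utp20 is a processome gene chosen after its value was seen (1.05 ± 0.12), are shown with the letters in capitals: chr10:57555208-57555507, plus strand, and chr7:25102800-25103099, minus strand (GRCr8).
Mybbp1a: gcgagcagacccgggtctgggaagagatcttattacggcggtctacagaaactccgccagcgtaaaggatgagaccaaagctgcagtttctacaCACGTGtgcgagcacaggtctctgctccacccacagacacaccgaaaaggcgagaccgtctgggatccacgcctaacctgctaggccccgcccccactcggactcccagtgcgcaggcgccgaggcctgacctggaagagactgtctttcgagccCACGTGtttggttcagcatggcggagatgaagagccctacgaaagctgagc
Utp20: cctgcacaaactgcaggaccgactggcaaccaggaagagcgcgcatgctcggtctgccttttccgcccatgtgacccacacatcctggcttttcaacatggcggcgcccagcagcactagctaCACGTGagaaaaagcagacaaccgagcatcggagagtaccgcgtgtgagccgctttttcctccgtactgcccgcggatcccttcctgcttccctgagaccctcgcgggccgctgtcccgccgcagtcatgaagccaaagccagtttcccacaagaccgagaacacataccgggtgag

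Proteasome subunits rose as a set too. Of 31 members 29 rose and 1 fell (Psme4, an activator cap, -0.28 ± 0.07), with a median of 0.67, and 26 had no overlap between the groups. Psmd14, the deubiquitinase of the proteasome lid, was at 0.80, 0.99 and 1.41 in PH90 rats, against -0.28, -0.10 and 0.01 in unoperated rats, 1.14 ± 0.13 (SE, adjusted p = 2.5e-08). Psmb4, a subunit of the core, was at 0.77, 0.98 and 1.13 in PH90 rats, against -0.32, -0.07 and -0.01 in unoperated rats, 1.07 ± 0.09 (SE, adjusted p = 1.8e-10), and Psmd13, Psma1 and Psmc4 rose by 1.09, 0.97 and 0.96. All 6 PH90 rats were within a narrow range in the mean of the list, though not in every gene: the list averaged 0.53 to 0.66 in PH90 rats, against -0.11 to -0.02 in unoperated rats. Against PH70 rats 29 of the 31 were higher (median 0.48).

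Among 20 targets of p53, the transcription factor of DNA damage and growth arrest, 8 rose and 2 fell. Ccng1 was at 0.96, 1.44 and 2.44 in PH90 rats, against -0.25, -0.08 and 0.01 in unoperated rats, 1.64 ± 0.25 (SE, adjusted p = 3.2e-06), and Tnfrsf10b, a death receptor, at 1.16, 1.46 and 1.75 in PH90 rats, against -0.41, -0.19 and 0.06 in unoperated rats, 1.59 ± 0.15 (SE, adjusted p = 1.0e-09). Plk3 rose by 1.32 ± 0.14. All 3 had separate groups. Tp53inp1 rose by 1.06 ± 0.28 with overlap, and the call was lost without PH90 rats 61 and 106 (0.54, adjusted p = 0.070). Ei24 (-1.03 ± 0.12) and Sesn1 (-0.64 ± 0.13) fell.

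Growth factors, their receptors and the inhibitors of regeneration moved both ways, 9 of 27 up and 7 down with a median of 0.05. Among ligands and targets that rose were Ccn2 (connective tissue growth factor), at 0.65, 1.64 and 3.41 in PH90 rats, against -0.42, -0.15 and 0.00 in unoperated rats, 1.87 ± 0.28 (SE, adjusted p = 2.1e-06), and Ccn1, 1.76 ± 0.26, both targets of YAP signalling, with Ankrd1 (1.14 ± 0.22) a further one. Tgfb2, a ligand of the TGF-beta family that arrests hepatocytes, rose by 1.22 ± 0.20, and Wnt2, a ligand known from liver endothelium, by 0.66 ± 0.09. None of these 5 was called in PH70, PH30 or sham rats against unoperated rats. The activin subunit genes fell together: Inhbc fell by 2.04 ± 0.22, Inhbe fell by 2.01 ± 0.26 and Inhba fell by 1.67 ± 0.14, each with separate groups. Both main receptors for hepatocyte growth fell. Egfr was at -1.48, -1.32 and -1.04 in PH90 rats, against -0.15, 0.12 and 0.28 in unoperated rats, -1.41 ± 0.12 (SE, adjusted p = 6.6e-11), and Met, the receptor for hepatocyte growth factor, was at -1.27, -0.93 and -0.52 in PH90 rats, against -0.03, 0.06 and 0.15 in unoperated rats, -0.99 ± 0.11 (SE, adjusted p = 1.8e-08). Hgf, its ligand, was not called, at -0.15 ± 0.20 (adjusted p = 0.67), and its values were -0.98, -0.08 and 0.16 in PH90 rats, against -0.23, -0.06 and 0.03 in unoperated rats.

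Stress pathways were split. Of 24 genes of the unfolded protein response 9 rose and 4 fell. Without PH90 rats 61 and 106 the counts were 6 and 7, and after quantile normalization 2 fell. In PH70 against the same unoperated rats 14 rose and 1 fell (9.31% and 9.17% of all genes). Compared directly, 3 members were higher in PH90 than in PH70 rats and 11 lower (14.1% and 10.4% of all genes). Against sham rats 4 were higher and 7 lower (19.9% and 14.7% of all genes). List means were -0.28 to 0.32 in PH90, -0.02 to 0.17 in sham and -0.28 to -0.07 in unoperated rats. Edem1, which sends misfolded glycoproteins to degradation, rose by 1.79 ± 0.20 and Manf by 0.84 ± 0.10, while Sel1l (-1.19 ± 0.14) and Dnajc3 (-0.57 ± 0.09) of the same quality control fell. Of 24 targets of ATF4, the factor of the amino acid response, 11 rose and 2 fell, or 7 and 2 without rats 61 and 106. The amino acid transporter chain Slc3a2 was at 1.49, 1.84 and 2.16 in PH90 rats, against -0.45, -0.15 and 0.06 in unoperated rats, 2.06 ± 0.15 (SE, adjusted p = 2.7e-12), the largest rise of that list, and Mthfd2, a mitochondrial folate enzyme, rose by 1.15 ± 0.16. Atf5 (-1.81 ± 0.24) and the transaminase Gpt2 (-1.56 ± 0.19) fell. Heat shock proteins had 13 of 20 members up and 2 down (median 0.39): Cryab rose by 1.67 ± 0.16 and Hspa8 by 0.89 ± 0.12, and Dnaja1 fell by 0.95 ± 0.12. The list of NRF2 antioxidant genes had 10 of 24 up and 8 down. Those that rose were led by the metallothioneins Mt2A (2.04 ± 0.28) and Mt1 (1.68 ± 0.26), heme oxygenase Hmox1 (1.59 ± 0.23) and mitochondrial superoxide dismutase Sod2 (1.41 ± 0.14). Both subunits of the enzyme that starts glutathione synthesis were lower (Gclm -1.5 ± 0.11, Gclc -1.02 ± 0.20), as were the detoxifying enzymes Akr7a3 (-1.93 ± 0.29) and Ephx1 (-1.64 ± 0.17). Of 22 hypoxia targets 9 rose and 4 fell. Ldha, lactate dehydrogenase, rose by 0.92 ± 0.11 with separate groups, and Vegfa (-0.37 ± 0.11) fell with overlap and was not called after quantile normalization (adjusted p = 0.079) or without rats 61 and 106 (adjusted p = 0.14).

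Acute phase proteins, which the liver secretes in response to injury, had 20 of 29 members up and 3 down (median 0.54). In 17 of the 29 the PH90 rats were all above the unoperated rats, against 11.5% of all genes. Timp1, an inhibitor of matrix proteases, was at 0.18, 0.75 and 1.15 in PH90 rats, against -2.21, -1.95 and -1.57 in unoperated rats, 2.68 ± 0.30 (SE, adjusted p = 2.2e-08), and the interleukin-1 receptor antagonist Il1rn at 0.40, 1.44 and 1.86 in PH90 rats, against -1.15, -0.85 and -0.48 in unoperated rats, 2.08 ± 0.25 (SE, adjusted p = 6.6e-08). Much of this list had also risen with the sham operation: 13 members rose in sham against unoperated rats, and PH90 against sham called 12 higher and 5 lower with a median of 0.17. The members that fell were Cp (-0.56 ± 0.09), the copper carrier ceruloplasmin, Crp (-0.40 ± 0.06) and Pigr (-0.59 ± 0.08). Cp had risen in sham (0.47) and PH70 (0.29) rats against unoperated rats, and its fall was not called after quantile normalization (-0.23, adjusted p = 0.070). Of 28 genes of IL-6 and IL-1 signalling 13 rose and 5 fell. Tnfrsf12a, the receptor of the growth-promoting cytokine TWEAK, was at 1.48, 2.11 and 3.36 in PH90 rats, against -0.42, -0.27 and 0.00 in unoperated rats, 2.57 ± 0.23 (SE, adjusted p = 3.4e-10). Stat3, the transcription factor behind the acute phase, rose by 1.5 ± 0.15, with 1.13 in sham rats against the same unoperated rats, and the chemokine gene Ccl2 rose by 1.26 ± 0.22. Socs2 (-3.37 ± 0.47), a growth hormone feedback inhibitor, the receptor gene Lifr (-1.71 ± 0.19) and Il1a (-1.36 ± 0.11) fell. Neutrophil markers moved with these lists, 9 of 19 up and 0 down with a median of 0.29, or 5 up without rats 61 and 106; their list mean was -0.04 to 0.30 in PH90 rats and -0.17 to -0.08 in unoperated rats. Their part in the result was not tested.

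While acute phase genes rose, most other plasma proteins of the liver fell. Of 28 coagulation and fibrinolysis genes 21 fell and 6 rose (median -0.52). Klkb1, plasma prekallikrein, was at -3.32, -2.75 and -2.49 in PH90 rats, against -0.14, 0.08 and 0.35 in unoperated rats, -2.91 ± 0.17 (SE, adjusted p = 5.6e-14). Plg, the plasminogen gene, was at -1.04, -1.0 and -0.93 in PH90 rats, against 0.22, 0.24 and 0.28 in unoperated rats, a change of -1.23 ± 0.06 (SE, adjusted p = 8.6e-16) with almost no spread in either group. Histidine-rich glycoprotein Hrg fell by 2.31 ± 0.13, protein S gene Pros1 fell by 1.82 ± 0.15, and Vkorc1, the vitamin K reductase that warfarin blocks, fell by 1.38 ± 0.13. Those that rose included kininogen Kng1 (1.89 ± 0.10), which rose by 1.68 in sham rats too, and genes also made by endothelial cells, thrombomodulin Thbd (1.85 ± 0.12) and the plasminogen activator Plat (1.14 ± 0.19).

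Complement, the plasma cascade that tags and lyses microbes, had 15 of 24 members down and 2 up (median -0.46). After quantile normalization 10 were down and 4 up, with a median of -0.17. The mannose-binding lectin Mbl2 was at -3.0, -1.91 and -0.86 in PH90 rats, against 0.82, 0.96 and 1.08 in unoperated rats, -2.87 ± 0.26 (SE, adjusted p = 3.7e-10), and its relative Mbl1 at -2.85, -1.71 and -1.17 in PH90 rats, against -0.21, -0.07 and 0.15 in unoperated rats, -1.92 ± 0.18 (SE, adjusted p = 1.2e-09). C1s (-1.45 ± 0.20) and Masp1 (-0.98 ± 0.11), proteases that start the cascade, fell with separate groups. The members that rose were Cd55 (0.54 ± 0.11), which protects cells from complement, and the receptor gene C3ar1 (0.26 ± 0.10), whose call was lost when any 1 of 7 rats was left out and under 5 other settings, among them quantile normalization and leaving out PH90 rats 61 and 106. The sign differed from that after a sham operation, where 4 members rose and 0 fell against the same unoperated rats, and PH90 against PH70 called 16 members lower and 1 higher (median -0.62). Plasma carriers and apolipoproteins had 20 of 26 members down and 1 up (median -0.67). Serpina6, the cortisol-binding globulin, was at -2.26, -1.64 and -1.28 in PH90 rats, against 0.55, 0.76 and 0.83 in unoperated rats, -2.40 ± 0.21 (SE, adjusted p = 2.6e-10), and Lcat, which esterifies cholesterol in plasma, fell by 1.57 ± 0.17. Hepatic lipase Lipc (-1.46 ± 0.11) and thyroxine-binding globulin Serpina7 (-1.43 ± 0.25) fell as well. Apoa5 was the member that rose (0.64 ± 0.17), with overlap, and not after quantile normalization (adjusted p = 0.054). Alb, the albumin gene, fell by a small but even amount: -0.11, -0.06 and -0.02 in PH90 rats, against 0.04, 0.06 and 0.11 in unoperated rats, -0.13 ± 0.03 (SE, adjusted p = 0.002). Afp, the fetal counterpart, was at -0.30 ± 0.14 (adjusted p = 0.12) and passed the test only without PH90 rat 39 (-0.40, adjusted p = 0.025).

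**Figure D5:**
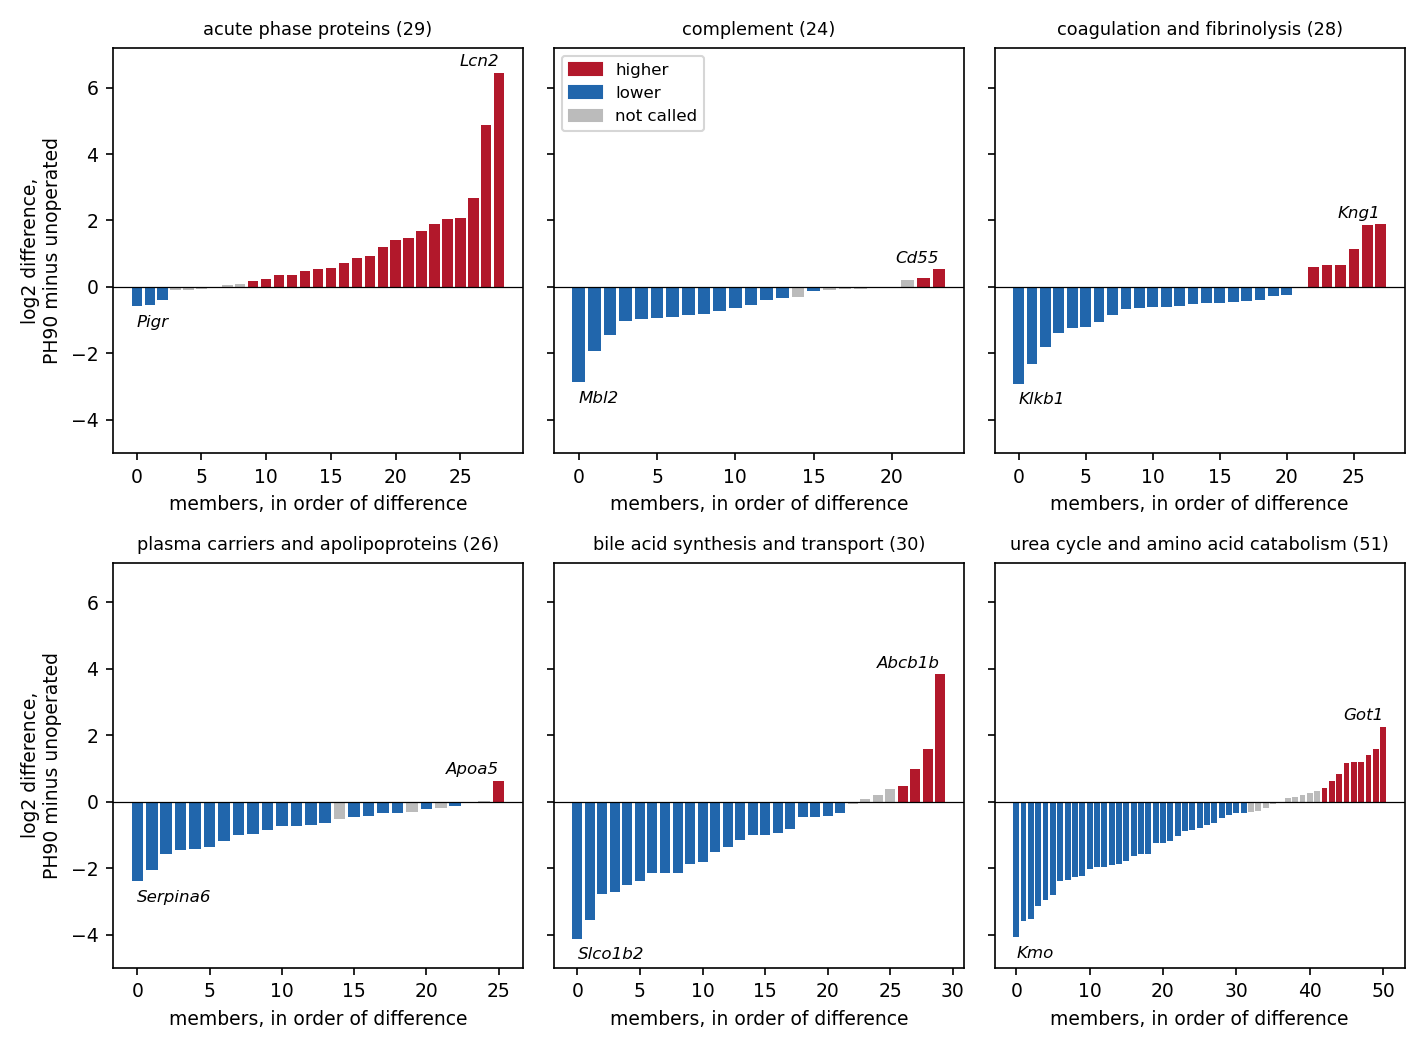
Bars are the log2 differences (PH90 minus unoperated) of every measured member of 6 lists, in order of size within each list, with the number of members in brackets; red bars were higher, blue bars lower and grey bars not called. Acute phase proteins reach 6.45 (Lcn2), while the other 5 lists hold more falls than rises.

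Growth hormone acts on hepatocytes through its receptor to make IGF-1 and its carriers and to keep up male-type cytochromes of the rat. In this axis 12 of 26 members fell and 4 rose. Igfals, the acid-labile subunit that holds IGF-1 in plasma, was at -3.80, -2.98 and -1.98 in PH90 rats, against 0.04, 0.46 and 0.90 in unoperated rats, -3.49 ± 0.23 (SE, adjusted p = 7.1e-13). Igfbp3, the main IGF carrier, was at -2.17, -1.70 and -1.27 in PH90 rats, against 0.37, 0.63 and 0.78 in unoperated rats, -2.28 ± 0.22 (SE, adjusted p = 1.3e-09). The receptor gene Ghr, named after its value was seen, was at -2.57, -1.99 and -1.29 in PH90 rats, against 0.02, 0.38 and 0.46 in unoperated rats, -2.22 ± 0.18 (SE, adjusted p = 5.8e-11). Igf1 itself fell by 0.54 ± 0.07 (SE, adjusted p = 5.5e-07), and the male-specific Cyp2c13 fell by 2.37 ± 0.11. Igfbp1, a carrier induced by fasting and stress, rose by 1.68 ± 0.46 with overlapping groups, and the insulin receptor substrate gene Irs2 by 1.24 ± 0.15.

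Drug metabolism fell broadly. In the list of cytochromes P450, which also holds their reductase gene Por, 20 of 32 members fell and 3 rose, with a median of -1.17. Cyp2c11, the main male form in rat liver, was at -3.45, -2.78 and -2.08 in PH90 rats, against 0.84, 1.0 and 1.22 in unoperated rats, -3.75 ± 0.18 (SE, adjusted p = 5.1e-16). Cyp3a2 (-3.06 ± 0.20), Cyp2b2 (-3.77 ± 0.34), Cyp4f4 (-3.03 ± 0.24) and Cyp2a2 (-2.44 ± 0.19) fell with no overlap. Cyp3a73 (-4.0 ± 0.37), which is not in the list, did so too. Cyp2c55, named above among the leading rises, is not in the list either. The probe sets of near-identical members may share signal. Por, the reductase that feeds electrons to all of them, went the other way: it was at 0.49, 0.76 and 1.45 in PH90 rats, against -1.04, -0.70 and -0.60 in unoperated rats, 1.64 ± 0.16 (SE, adjusted p = 2.5e-09), and had risen by 0.76 in sham rats. The fatty acid hydroxylase Cyp4a1 rose by 1.04 ± 0.19. Without PH90 rat 106, or without rats 61 and 106, 5 members of this list rose. Of 27 conjugation enzymes 16 fell and 3 rose (median -0.97), among them Ugt2b10 (-2.94 ± 0.28) and Gstm7 (-2.65 ± 0.14) below and the methyltransferase Nnmt (0.88 ± 0.14) above the unoperated rats.

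Of 30 genes of bile acid synthesis and transport 22 fell and 4 rose, with a median of -1.0. The carriers of bile acid uptake fell. Slc10a1, the sodium-dependent bile acid carrier of the sinusoidal membrane, was at -3.81, -3.12 and -2.47 in PH90 rats, against 0.47, 0.49 and 0.55 in unoperated rats, -3.56 ± 0.17 (SE, adjusted p = 4.1e-16), and Slco1b2, the other uptake transporter, works beside it. Of the synthetic enzymes, Akr1d1 fell by 2.78 ± 0.31 and Cyp39a1 fell by 2.52 ± 0.21. Cyp7a1, the rate-limiting enzyme, was at -4.49, -2.93 and -1.66 in PH90 rats, against -1.34, -0.60 and 1.36 in unoperated rats; the groups did not overlap, but the unoperated rats alone spanned -1.34 to 1.36. Its difference was -2.72 ± 0.49 (SE, adjusted p = 3.7e-05) and was not called after quantile normalization (-1.10, adjusted p = 0.14). It had not fallen in PH70 rats (0.61, not called), and PH90 against PH70 was -3.33 (adjusted p = 4.5e-06). Efflux pumps were the members that rose: besides Abcb1b, the phospholipid flippase Abcb4 rose by 1.60 ± 0.16 and the basolateral exporter Abcc3 by 1.0 ± 0.18.

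Of 51 genes of the urea cycle and amino acid breakdown 32 fell and 9 rose (median -0.78). Glyat, which couples glycine to benzoate, fell by 3.59 ± 0.30, Csad of taurine synthesis fell by 3.52 ± 0.20, Kynu of tryptophan breakdown fell by 3.14 ± 0.36 and Prodh, proline dehydrogenase, fell by 2.97 ± 0.18. The rising share was 17.6%, against 19.3% of all genes, and the falling share 62.7%, against 14.5%. Among the rises were Arg1 and Asl of the urea cycle proper, and values of its other enzymes are not given here. Arg1, arginase, was at 1.10, 1.16 and 1.45 in PH90 rats, against -0.07, -0.02 and 0.28 in unoperated rats, 1.20 ± 0.10 (SE, adjusted p = 2.6e-11). Asl, argininosuccinate lyase, was at 1.18, 1.56 and 1.71 in PH90 rats, against -0.37, -0.05 and 0.14 in unoperated rats, 1.58 ± 0.17 (SE, adjusted p = 1.3e-08). The transaminases Got1 (2.26 ± 0.21) and Tat (1.19 ± 0.21) and the lysine enzyme Aass (1.40 ± 0.15) rose too. In PH70 rats the differences of Arg1, Asl, Got1 and Tat from unoperated rats were -0.01, -0.06, -0.15 and -0.04, none of them called, and each of the 4 was called higher in PH90 than in PH70 rats.

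Glucose and glycogen genes had 14 of 24 members down and 7 up (median -0.63), or 14 down and 4 up without PH90 rats 61 and 106. Ppp1r3b, which targets phosphatase to glycogen, was at -2.79, -2.50 and -1.70 in PH90 rats, against 0.70, 0.84 and 1.22 in unoperated rats, -3.25 ± 0.22 (SE, adjusted p = 1.1e-12). Pyruvate kinase Pklr fell by 2.88 ± 0.26, fructokinase Khk fell by 2.55 ± 0.20, pyruvate carboxylase Pc fell by 2.32 ± 0.18 and liver glycogen phosphorylase Pygl fell by 2.22 ± 0.18. Aldoa, the aldolase of muscle and of fetal liver, was at 1.30, 1.47 and 1.60 in PH90 rats, against -0.52, -0.27 and -0.05 in unoperated rats, 1.71 ± 0.09 (SE, adjusted p = 2.8e-15), against 0.33 in PH70 rats. Ppargc1a, the coactivator of gluconeogenesis and mitochondrial biogenesis, rose by 1.40 ± 0.26 with overlap.

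In fat metabolism most enzymes fell and the genes of the lipid droplet rose in part. Fatty acid oxidation and ketogenesis had 18 of 33 members down and 6 up (median -0.39). Acsl1, which activates fatty acids, was at -3.56, -2.32 and -1.93 in PH90 rats, against 0.45, 0.56 and 0.66 in unoperated rats, -3.02 ± 0.18 (SE, adjusted p = 8.4e-14), and Hadh of beta oxidation fell by 2.03 ± 0.14. Acot2 (1.46 ± 0.20), Eci1 (1.35 ± 0.18) and Pex11a (1.14 ± 0.15), genes of mitochondria and peroxisomes, rose. Lipogenesis had 15 of 24 members down and 4 up (median -0.82): the regulators Srebf1 (-2.21 ± 0.20) and Thrsp (-2.43 ± 0.26) and the acetate enzyme Acss2 (-2.10 ± 0.23) fell, while lipin Lpin1 rose (1.40 ± 0.26). Of 22 lipid droplet and lipolysis genes 8 rose and 5 fell. Plin2, the coat protein of hepatocyte lipid droplets, was at 1.37, 1.56 and 2.01 in PH90 rats, against -0.18, 0.17 and 0.26 in unoperated rats, 1.48 ± 0.14 (SE, adjusted p = 5.1e-10), and Hilpda, an inhibitor of lipolysis, at 0.54, 1.49 and 2.79 in PH90 rats, against -0.56, -0.47 and -0.15 in unoperated rats, 1.95 ± 0.21 (SE, adjusted p = 1.1e-08). Pnpla2, the triglyceride lipase itself, rose by 1.68 ± 0.11 and the fatty acid carrier Fabp4 by 1.39 ± 0.21, whereas Aadac (-2.66 ± 0.12) and Cideb (-1.67 ± 0.18), genes of lipid loading and secretion, fell. In cholesterol synthesis 10 of 19 members fell and 0 rose (median -0.48), or 6 after quantile normalization, among them Fdft1 (-1.91 ± 0.19), Ebp (-1.88 ± 0.14) and Nsdhl (-1.78 ± 0.13).

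Transcription factors that hold hepatocyte identity fell in 14 of 24 cases and rose in 3 (median -0.43). Nr1h4, the bile acid receptor FXR, was at -2.58, -1.18 and -0.41 in PH90 rats, against 0.05, 0.51 and 0.81 in unoperated rats, -1.81 ± 0.24 (SE, adjusted p = 3.1e-07). Cebpa was at -1.76, -1.04 and -0.27 in PH90 rats, against 0.13, 0.35 and 0.43 in unoperated rats, -1.29 ± 0.19 (SE, adjusted p = 1.8e-06), and the thyroid hormone receptor Thrb fell by 1.22 ± 0.10, the fatty acid sensor Ppara fell by 1.33 ± 0.26 and the xenobiotic receptor Nr1i3 fell by 1.16 ± 0.25. Nr1i2, the other xenobiotic receptor, rose slightly (0.49 ± 0.12), though not after quantile normalization (adjusted p = 0.080), where 1 member of the list rose. Genes of the pericentral zone had 9 of 16 members down and 1 up, and those of the periportal zone 8 of 17 down and 2 up (0 and 1 up after quantile normalization); a difference between the zones was not tested. The general hepatocyte markers had 12 of 20 members down and 5 up, with a list mean of -0.49 to -0.36 in PH90 rats and 0.05 to 0.17 in unoperated rats. The part of a changed share of hepatocytes in these falls was not tested.

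Glucocorticoid responsive genes had 10 of 19 members up and 4 down (median 1.12). The largest rise (6.45) was that of Lcn2, named above, which had also risen after the sham operation. List means were 0.18 to 0.78 in PH90, -0.04 to 0.43 in sham and -0.51 to -0.10 in unoperated rats. Against sham rats 9 members were higher in PH90 and 5 lower (19.9% and 14.7% of all genes). Fkbp5, a chaperone partner of the receptor, was at 0.74, 1.34 and 2.32 in PH90 rats, against -0.49, -0.21 and -0.12 in unoperated rats, 1.71 ± 0.19 (SE, adjusted p = 2.0e-08), and Zbtb16 rose by 1.72 ± 0.32. The receptor gene Nr3c1 fell by 1.13 ± 0.13, and had fallen by 0.86 in PH70 rats.

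Markers of other cells in the liver were called in both directions, and several counts were near the shares of all genes, 19.3% rising and 14.5% falling. Macrophage markers rose in 18.2% of cases. T and NK cell, B and plasma cell, red cell and stellate cell markers fell in 18.2%, 13.3%, 15.4% and 14.8% of cases. Of 22 macrophage and Kupffer cell markers 5 fell and 4 rose, or 2 rose without PH90 rat 87 or 106 or unoperated rat 145 or 148, without PH90 rats 61 and 106, or on the 12 arrays alone. After quantile normalization 3 fell. Csf1r (-0.97 ± 0.14), Adgre1 (-0.91 ± 0.16) and the Kupffer cell lectin Clec4f (-0.80 ± 0.17) fell, and the scavenger receptor Marco rose (0.75 ± 0.20). The list mean was -0.54 to -0.05 in PH90 rats and -0.24 to 0.06 in unoperated rats. Endothelial markers split: 7 of 20 rose, led by Esam (0.96 ± 0.10) and Ramp2 (0.94 ± 0.12), and 5 fell, led by the sinusoidal markers Oit3 (-1.21 ± 0.16) and Clec4g (-1.14 ± 0.14). Of 27 stellate cell and matrix markers 10 rose and 4 fell. Tagln, a marker of contractile cells, was at 1.13, 2.28 and 2.96 in PH90 rats, against -0.52, 0.00 and 0.10 in unoperated rats, 2.31 ± 0.43 (SE, adjusted p = 6.5e-05), and Col4a1 (1.46 ± 0.20) and Des (1.05 ± 0.16) rose as well. Lrat, the vitamin A storing enzyme of resting stellate cells, was at -2.60, -1.52 and -1.16 in PH90 rats, against 0.19, 0.47 and 0.59 in unoperated rats, -2.06 ± 0.19 (SE, adjusted p = 3.9e-10). Among 20 bile duct and progenitor markers 4 rose and 1 fell, and the largest were the simple keratins, which hepatocytes also make. Krt8 was at 2.42, 2.60 and 3.04 in PH90 rats, against -0.23, -0.04 and 0.01 in unoperated rats, 2.77 ± 0.20 (SE, adjusted p = 4.9e-12), and Krt18 rose by 2.44 ± 0.15. T and NK cell markers had 4 of 22 down and 0 up, among them Cd4 (-0.78 ± 0.18) and Prf1 (-0.62 ± 0.11). B and plasma cell markers had 1 of 15 up and 2 down, red cell markers 1 of 13 up and 2 down, megakaryocyte markers 0 of 7 up and 3 down, and mesothelial markers 0 of 10 called. Leaving out single rats, 1 B and plasma cell marker fell without any 1 of 8 rats and 1 red cell marker without PH90 rat 111 or unoperated rat 145. Likewise 1 megakaryocyte marker rose without any 1 of 4 rats, 1 mesothelial marker rose without any 1 of 3, and 0 bile duct markers fell without any 1 of 9. After quantile normalization 0 B and plasma cell, 0 bile duct, 1 red cell and 1 megakaryocyte marker fell, and 1 mesothelial marker rose. On the 12 arrays alone 2 mesothelial markers rose.

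Set directly against PH70 rats, PH90 livers differed in 4454 genes (24.5%), with 2558 higher (14.1%) and 1896 lower (10.4%). Against the same unoperated rats the PH70 group had 3358 genes called (18.5%) and the PH30 group 1789 (9.85%). These comparisons share arrays, so their values are given side by side only. Among genes that also differed from unoperated rats, those highest in PH90 over PH70 included Npy (4.64), Gstm3 (3.57), Faxdc2 (3.49), Cdh17 (3.15) and Rdh16 (2.65), a retinol dehydrogenase that was 2.04 ± 0.25 above unoperated rats. Those lowest were Rgn (-4.92), Sult1c3 (-4.47), Car3 (-4.25), Cyp7a1 and Slco1b2 (-3.32), followed by Xpnpep2 (-3.15), an aminopeptidase, and Acnat2 (-3.02), an acyltransferase. Xpnpep2 was at -3.46, -3.19 and -2.45 in PH90 rats, against -0.16, 0.14 and 0.65 in unoperated rats, -3.28 ± 0.18 (SE, adjusted p = 9.7e-15), and in PH70 rats it was -0.13 from the unoperated rats, which was not called. After quantile normalization 2003 genes were called between PH90 and PH70, with 1088 higher. Against sham rats 6290 genes were called in PH90 (34.6%), and 5715 were called against PH30 rats (31.5%), with 18.4% of all genes higher and 13.1% lower.

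The arrays also carry probe sets for 363 miRNA genes, which read the precursor or its host transcript and not the mature miRNA. Of these 8 rose (2.20%) and 28 fell (7.71%), shares below those of all genes, and the median was -0.01. They were examined after the values of the whole table had been seen. The largest falls were those of Mir505 and of Mir122, the most characteristic miRNA of hepatocytes. Mir505 was at -1.69, -1.39 and -0.92 in PH90 rats, against 0.38, 0.67 and 1.06 in unoperated rats, -2.06 ± 0.25 (SE, adjusted p = 1.0e-07). Mir3589, which also fell (-0.17 ± 0.07), lies on the other strand at the Mir505 locus, so their signals may be mixed. Mir122 was at -1.67, -1.09 and -0.52 in PH90 rats, against 0.28, 0.49 and 0.90 in unoperated rats, -1.64 ± 0.18 (SE, adjusted p = 9.0e-09). Mir3591 lies on the other strand at the Mir122 locus, so signal of the pair may be mixed. Its difference was -0.24 ± 0.09, and the call was lost without any 1 of 5 rats, without PH90 rats 61 and 106 together (-0.18, adjusted p = 0.19), on the 12 arrays alone (adjusted p = 0.088) and with array weights (adjusted p = 0.068). Mir22 fell by 0.76 ± 0.11 (SE, adjusted p = 1.4e-06). Mature sequences of 2 of the falling genes are given from RefSeq (GRCr8), with the seed, bases 2 to 8, in capitals; the seeds differ.
miR-505-3p: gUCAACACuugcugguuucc
miR-22-3p: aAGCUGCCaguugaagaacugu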

How the data were processed

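RNA of 30 rat livers was measured on 1 Affymetrix Rat Gene 2.0 ST array each. The deposited values are log2 signals made by the authors with RMA and Affymetrix Expression Console, per the submitters' processing notes, with versions not given in the sources used here. In the deposited table every probe set has a median of 0 over the 30 arrays, and array medians lie between -0.009 and 0.022. Levels are therefore lost and dim probe sets could not be removed. Of 29489 probe sets, 18511 had 1 gene symbol in the platform annotation, and those of 1 gene were averaged to 18166 genes (74 of 291 genes with several probe sets had probe sets that correlated below 0). A mean per group was fitted over the 30 arrays with limma 3.58.1 (R 4.3.3) with moderated variances and Benjamini-Hochberg adjustment over all genes, and differences were called at an adjusted p below 0.05. The fit was tested on simulated data. The number of arrays limits the precision. Genes were named by rule: the 15 largest rises and falls, the 5 smallest p-values in each direction, up to 5 called members of each list in each direction, 10 fixed genes, and the 8 largest differences from PH70 each way. Members, lists and rule were chosen with earlier results of these data known. Alternatives were other thresholds, 2 groups only, array weights, a robust prior, quantile or median normalization, other probe set rules and leaving out each rat. Leaving out PH90 rats 61 and 106 was chosen after seeing the data. Promoters and miRNAs are from RefSeq (GRCr8).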

Additional observations from a re-analysis of the deposited data

Results flagged for a closer look

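Among 564 sets of 6 values (the genes and list means named here, in each group) 30 held a rat set apart from the other 5 (5.32%), where chance gives about 1 in 20. PH90 rat 61 accounted for 6 of the genes. It was lowest in Sult1c3 (-5.77, others -5.16 to -4.86), Rbm3 (1.98, others 2.56 to 2.90) and Cldn2 (-1.19, others -0.64 to -0.45), and highest in Plk3 (1.84, others 0.90 to 1.12), Mthfd2 (1.67, others 0.56 to 0.96) and Plin2 (2.01, others 1.37 to 1.60). PH90 rat 106 was highest in Bub3 (0.63, others 0.34 to 0.45) and in the mean of heat shock proteins (0.48, others 0.18 to 0.25). It was lowest in Lrat (-2.60, others -1.64 to -1.16) and in the mean of fatty acid oxidation genes (-0.88, others -0.38 to -0.18). PH90 rat 111 was lowest in Zfp36 (0.58, others 1.39 to 1.63) and in the mean of growth factor genes (-0.14, others -0.02 to 0.04). It was highest in Pros1 (-0.62, others -1.58 to -1.27) and Psme4 (0.00, others -0.28 to -0.19). PH90 rat 43 was lowest in Clec4f (-1.35, others -0.77 to -0.47).

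Among unoperated rats, rat 147 stood apart most often. It was low in the growth hormone target Socs2 (-0.01, others 1.42 to 1.83) and in the mean of immediate early genes (-0.29, others -0.06 to 0.04). It was high in Per1 (0.41, others -0.87 to -0.58), Lpin1 (0.45, others -0.45 to -0.15), Arg1 (0.28, others -0.07 to 0.04) and the mean of megakaryocyte markers (0.15, others -0.07 to -0.01). Rat 145 was high in Fabp4 (0.58, others -0.22 to 0.02) and Clec4g (0.35, others -0.12 to 0.06). Rat 148 was low in Npy (-0.48, others -0.35 to -0.28). Rat 150 was high in Ei24 (0.23, others 0.04 to 0.09) and in the mean of growth factor genes (0.13, others -0.04 to 0.01), and low in Ebp (-0.48, others -0.13 to 0.02). Rat 151 was high in Ephx1 (0.95, others 0.41 to 0.58). Rat 152 was low in Crp (-0.08, others 0.01 to 0.06) and in the mean of mitosis genes (-0.09, others 0.06 to 0.14).

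Probe sets outside the gene table also differed. Of 10403 probe sets with no gene listed 1363 were called in PH90 against unoperated rats (13.1%), 781 higher and 582 lower, with differences of -5.64 to 3.75. Of 575 probe sets with several gene symbols 200 were called (34.8%), 133 higher and 67 lower, with differences of -4.56 to 6.50.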

How the results depend on the processing

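Of 236 genes named, 232 were called, and 179 kept direction and call under all 23 settings. The calls lost under quantile normalization or without PH90 rats 61 and 106 stand beside their genes. Differences near 0 turned: Mki67 was at 0.05 without PH90 rats 61 and 106 (adjusted p = 0.96). Leaving out single rats, Cdk1 ran from -0.10 to 0.13 and Hgf from -0.22 to 0.00. At a minimum of 2-fold the calls were 1004 for PH90 against unoperated, 578 for PH90 against PH70, 1013 for PH90 against sham and 17 for sham against unoperated. Quantile normalization, which narrows the PH90 values by construction, gave 2003 calls for PH90 against PH70. Calls for sham against unoperated, 134 in all, depended most on the setting: 55 at an adjusted p below 0.01, 721 when only these groups were fitted (31.6% higher, against 41.8%), 539 with array weights, 316 without PH30 rat 95 and PH70 rat 139, and 509 after quantile normalization. Without 1 rat the calls were 5799 to 6083 for PH90 against unoperated, 3966 to 4525 against PH70, 5949 to 6225 against sham, and 70 to 139 for sham against unoperated, with 70 when unoperated rat 152, 79 when sham rat 112 and 87 when sham rat 45 was left out. Without PH90 rats 61 and 106, 5443 genes were called in PH90 against unoperated rats. The causes were not tested. No paired analysis was possible because rat numbers name single animals and pair none. A filter on dim probe sets was not run, since centring removed the levels.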

Other observations

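Of 18 measured members of the clock list 3 rose and 6 fell in PH90 against unoperated rats, with a median of 0.13, and 5 rose without PH90 rat 43. The list is not of clock genes alone, as its largest rise (3.25) was that of the cold-inducible gene Rbm3. Npas2 and Bmal1, transcription factors of the positive limb of the clock, fell. Npas2 was at -1.54, -1.11 and -0.13 in PH90 rats, against 0.75, 0.96 and 1.23 in unoperated rats, -1.99 ± 0.19 (SE, adjusted p = 1.4e-09), and Bmal1 at -1.39, -0.81 and -0.47 in PH90 rats, against 0.10, 0.19 and 0.37 in unoperated rats, -1.10 ± 0.10 (SE, adjusted p = 4.0e-10). Per1, a gene of the negative limb that glucocorticoids also induce, was at 0.42, 1.10 and 1.52 in PH90 rats, against -0.87, -0.66 and 0.41 in unoperated rats, 1.57 ± 0.30 (SE, adjusted p = 8.8e-05). The cold-inducible genes went different ways, with Rbm3 at 3.25 ± 0.16 and Cirbp at -0.43 ± 0.11. The hour of day at which tissue was taken is not in the labels, and its part in these values was not tested.

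Subunits of oxidative phosphorylation moved little. Of 40 members 14 rose and 7 fell (4 fell without PH90 rats 61 and 106), with a median of 0.11. In 13 of the 40 every PH90 rat was above every unoperated rat, as in 11.5% of all genes. Atp5mc3, a subunit of the ring of ATP synthase, was at 0.56, 0.68 and 0.98 in PH90 rats, against -0.31, -0.04 and 0.06 in unoperated rats, 0.82 ± 0.09 (SE, adjusted p = 3.5e-08), and Cox5b of cytochrome oxidase rose by 0.58 ± 0.08. The largest fall was that of the succinate dehydrogenase subunit Sdha, -0.61 ± 0.09.

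Junction genes of the hepatocyte had 5 of 19 members up and 4 down, or 3 up without PH90 rat 106 or unoperated rat 152 or after quantile normalization. The tight junction gene Marveld3 was at 0.46, 1.12 and 1.37 in PH90 rats, against -0.23, -0.11 and 0.16 in unoperated rats, 1.05 ± 0.13 (SE, adjusted p = 7.6e-08), and the gap junction gene Gja1 rose by 0.64 ± 0.13. Gjb1, the main gap junction protein of hepatocytes, was at -1.14, -0.69 and -0.50 in PH90 rats, against 0.04, 0.26 and 0.38 in unoperated rats, -0.97 ± 0.11 (SE, adjusted p = 1.4e-08), and the pericentral claudin Cldn2 fell by 1.01 ± 0.13.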
